A study of Mus musculus with 6 samples.

Results

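The Cyp2a and Cyp2b genes of mouse liver were examined together with the nuclear receptors and cofactors on which these enzymes depend, in mice whose intestine could no longer assemble chylomicrons. The set was chosen by gene symbol and holds 10 of the 40481 genes of the deposited count table, namely Cyp2a4, Cyp2a5, Cyp2a22, Cyp2b9, Cyp2b10, Cyp2b13, the receptor genes Nr1i2 and Nr1i3, and the cofactor genes Por and Alas1. Liver RNA was sequenced from 3 control pools, labelled wild type, and 3 Mttp-IKO pools, each pool combining RNA of 3 to 4 mice. All mice were on a C57BL/6 background and ate a methionine/choline-deficient (MCD) diet for 3 weeks. By the study's methods the mice were 12 to 16 weeks old and carried floxed Mttp alleles with Villin Cre ER(T2), a Cre driven in intestinal epithelium and active only after tamoxifen. Mttp-IKO mice received tamoxifen for 5 days and the diet began 3 weeks later, while control littermates received vehicle, so tamoxifen itself and the loss of intestinal Mttp cannot be told apart. The legends call the mice of this diet experiment male. A replicate was a pool, so each p-value measures the spread between pools and not between single mice.

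Cytochromes of the Cyp2a and Cyp2b subfamilies are membrane enzymes of the endoplasmic reticulum that oxidize steroids, drugs and plant compounds. Each needs a heme group, whose synthesis in liver is limited by Alas1, and electrons from NADPH, which the reductase encoded by Por hands over. Nr1i3 encodes the constitutive androstane receptor (CAR) and Nr1i2 the pregnane X receptor (PXR), nuclear receptors that bind DNA with an RXR partner and switch on drug-metabolizing genes, Cyp2b10 being the classic CAR target in mice. Cyp2a4, Cyp2b9 and Cyp2b13 are known as female-predominant in mouse liver, where the pulsatile growth hormone pattern of males keeps them low.

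The 6 enzyme genes lie in one cluster on chromosome 7 of the GRCm38 genome, in the order Cyp2b10 (ENSMUSG00000030483, chr7:25897620-25926624), Cyp2b13 (ENSMUSG00000040583, chr7:26061495-26096196), Cyp2b9 (ENSMUSG00000040660, chr7:26173411-26210661), Cyp2a4 (ENSMUSG00000074254, chr7:26307190-26315088), Cyp2a5 (ENSMUSG00000005547, chr7:26835305-26843548) and Cyp2a22 (ENSMUSG00000091867, chr7:26931631-26939386), all on the plus strand except Cyp2a22. Several of them are close copies, and 2 pairs of copies had different values in the data below. Their promoters are therefore printed, as the 250 bases before the RefSeq transcription start (GRCm38.p6, plus strand, 5′ to 3′). In the first pair, capitals mark the 4 aligned bases at which Cyp2a4 and Cyp2a5 differ. In the second pair they mark the 2 bases at which Cyp2b9 and Cyp2b13 differ, and in Cyp2b10 they mark the bases that differ from Cyp2b9 or face a gap in it (61 differences over 240 aligned bases and 14 gap bases in the alignment).
Cyp2a4 (chr7:26306942-26307191): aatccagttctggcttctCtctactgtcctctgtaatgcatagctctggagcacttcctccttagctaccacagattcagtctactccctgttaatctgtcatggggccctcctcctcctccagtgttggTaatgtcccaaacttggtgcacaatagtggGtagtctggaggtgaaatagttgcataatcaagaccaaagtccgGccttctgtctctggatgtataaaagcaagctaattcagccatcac
Cyp2a5 (chr7:26835089-26835338): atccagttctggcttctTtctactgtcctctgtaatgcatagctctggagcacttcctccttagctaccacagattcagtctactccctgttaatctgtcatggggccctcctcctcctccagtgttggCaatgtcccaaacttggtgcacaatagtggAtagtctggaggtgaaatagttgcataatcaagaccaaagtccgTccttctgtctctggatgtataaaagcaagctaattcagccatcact
Cyp2b9 (chr7:26173159-26173408): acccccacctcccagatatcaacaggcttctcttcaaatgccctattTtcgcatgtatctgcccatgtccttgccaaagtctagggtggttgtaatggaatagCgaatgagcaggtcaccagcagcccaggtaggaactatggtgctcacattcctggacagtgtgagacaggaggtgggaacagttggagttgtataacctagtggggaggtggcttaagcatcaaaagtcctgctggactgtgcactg
Cyp2b13 (chr7:26061245-26061494): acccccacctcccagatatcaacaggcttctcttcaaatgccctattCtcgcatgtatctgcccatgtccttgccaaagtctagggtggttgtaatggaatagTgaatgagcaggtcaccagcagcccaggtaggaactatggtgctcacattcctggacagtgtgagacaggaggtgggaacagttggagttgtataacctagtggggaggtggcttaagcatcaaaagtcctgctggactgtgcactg
Cyp2b10 (chr7:25897408-25897657): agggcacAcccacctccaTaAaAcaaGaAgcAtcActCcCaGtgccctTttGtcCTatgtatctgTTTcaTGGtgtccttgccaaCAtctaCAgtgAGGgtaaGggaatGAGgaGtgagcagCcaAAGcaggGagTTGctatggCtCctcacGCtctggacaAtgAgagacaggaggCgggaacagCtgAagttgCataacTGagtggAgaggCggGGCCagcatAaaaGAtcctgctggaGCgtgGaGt

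In Cyp2a4, Cyp2a5 and Cyp2b10 the RefSeq start lies inside the gene as drawn by the annotation used for counting. Of 4 motifs searched on both strands of these windows, TATAAA, the core of the TATA box, was found in Cyp2a4, Cyp2a5 and Cyp2a22 and in 12.4% of 32851 RefSeq promoters of the same length. AGGTCA, the half-site bound by many nuclear receptors, was found in Cyp2b9 and Cyp2b13 and in 14.0% of all promoters. CACGTG occurred in Nr1i3 (6.02% of all promoters) and TTCNNNGAA, the letters of a STAT5 site, in Alas1 (7.02%). A match of letters is a description and not a binding site.

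The pools held 25271585 to 36238734 reads on genes, so a count of 0 allowed up to 3 reads, or 0.0828 to 0.119 CPM (read counts relative to the library total), counting error only. Hepatic Mttp was read at 90.4, 186 and 175 CPM in the controls and 145, 129 and 161 CPM in Mttp-IKO pools, which does not check the labels because the deletion is intestinal. Hepatocyte markers were abundant in every pool, and the geometric mean of 8 of them was 0.47 higher (log2) in Mttp-IKO pools, with 0 of the 8 called. Single markers ranged from −0.55 (Ttr) to 0.98 (Apoa1), so scaling to their mean depends on the markers chosen. Summed stellate cell markers were at 1038 to 1688 CPM in control and 631 to 720 CPM in Mttp-IKO pools (4 of 8 genes called lower), and macrophage markers at 663 to 1368 and 435 to 551 CPM (1 of 9 higher, 1 lower). The part of cell composition in the values below was not tested, and in whole liver a change in the number of cells of a type and a change in RNA per cell cannot be told apart. Mttp-IKO pool 3 stood apart, with 0.290% of its reads on small RNAs against 1.92 to 3.51% in the other pools and 1.70% on mRNAs annotated at 300 nt to under 1 kb against 3.62 to 3.84%. Results that rest on it are therefore also given without it. Striated muscle markers summed to 66.5 CPM in control pool 1 and 553 CPM in control pool 2, against 0.461 to 1.03 CPM in the other pools, and their part in the results was not tested. The Y-linked gene Ddx3y was read at 36.1 to 67.9 CPM and Xist at 0.422 to 1.51 CPM across the 6 pools.

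All 10 genes passed the filter on low counts. Per kilobase of gene length, the order of mean levels in control livers ran from Cyp2a5 (524 ± 59.1 CPM per kb, SD, n = 3) over Cyp2a4 (302 ± 55.0), Por (259 ± 18.4), Alas1 (208 ± 21.1), Cyp2b9 (81.2 ± 35.4), Cyp2a22 (32.6 ± 11.7), Nr1i2 (28.8 ± 0.610) and Nr1i3 (22.5 ± 7.0) down to Cyp2b13 (1.65 ± 0.517) and Cyp2b10 (0.807 ± 0.362). Neighbours in this order had pools that did not overlap in 4 of 9 cases, between Cyp2a5 and Cyp2a4, Por and Alas1, Alas1 and Cyp2b9, and Nr1i3 and Cyp2b13. In Mttp-IKO livers Cyp2a4 came first (609 ± 286 CPM per kb), before Por (409 ± 103) and Cyp2a5 (402 ± 99.7), although the pools of these 3 overlapped. Cyp2b13 (14.6 ± 7.40 CPM per kb) and Cyp2b10 (7.80 ± 10.4) remained the lowest of the 10. The gene length deposited with the counts was 4021 nt for Por and 1717 nt for Cyp2a4. Their longest coding transcripts in GENCODE M21 have 2636 and 1738 nt, so the order of Por and Cyp2a4 depends on the length used.

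**Figure D1:**
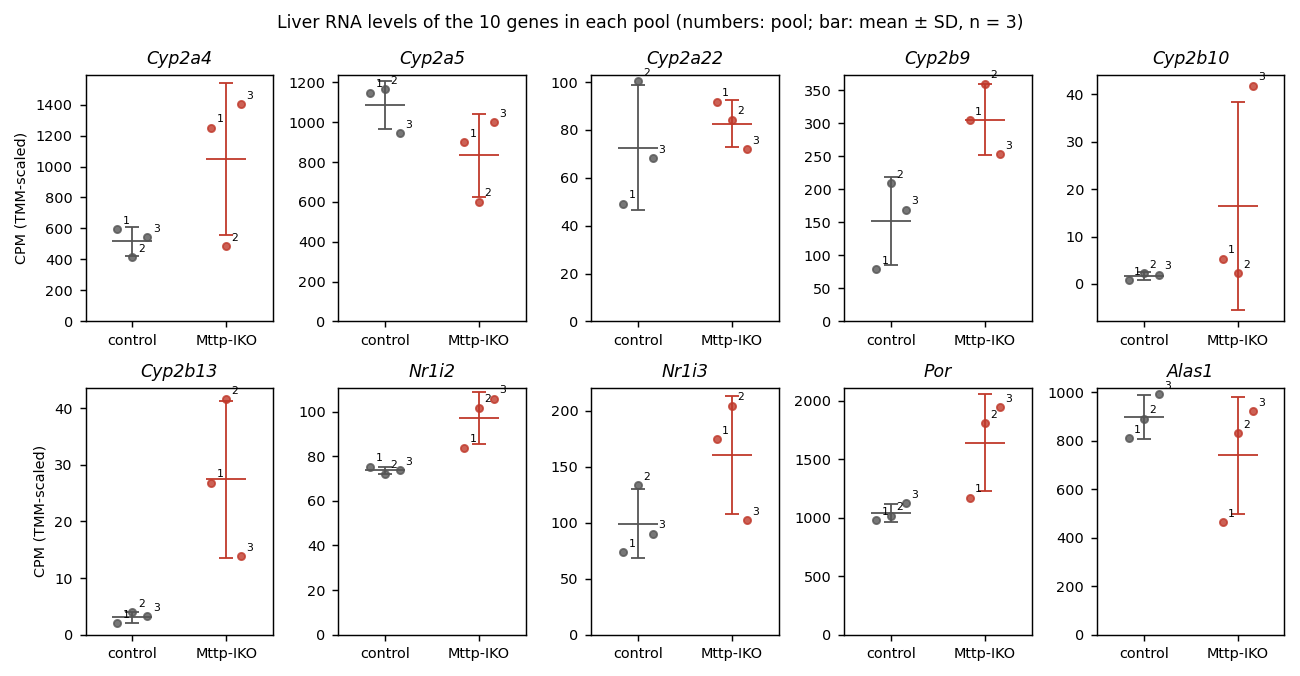
TMM-scaled CPM (vertical axis, linear, one scale per gene) of the 10 genes in the 3 control (grey) and 3 Mttp-IKO (red) pools. Numbers give the pool, horizontal bars the mean and whiskers the SD; the groups do not overlap for Cyp2b9, Cyp2b13, Nr1i2 and Por, and Cyp2b10 is high only in Mttp-IKO pool 3, whose value pulls the lower whisker below 0.

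Of the 10 genes, 1 passed the test across all genes (edgeR quasi-likelihood test with Benjamini-Hochberg adjustment, threshold 0.05), against 4.01% of the 17287 genes tested with 0.920% called higher and 3.09% lower. That gene was Cyp2b13. Groups did not overlap for 4 of the 10, all higher in Mttp-IKO pools, where 31.0% of all genes did not overlap (14.5% higher and 16.5% lower). An unadjusted p under 0.05 was reached by 6 of the 10 and by 23.0% of all genes. The median log2 fold change of the 10 genes was 0.68, with 8 above 0, and that of all genes tested was 0.0057. With scaling to the hepatocyte markers the median of the 10 genes was 0.21, with 6 above 0. Across all genes 159 were called higher and 535 lower. The split moved to 112 and 907 with scaling to total counts and to 64 and 1877 with scaling to the 8 hepatocyte markers. These scalings lower the median of all genes by 0.18 and 0.47 (log2), respectively. With 1 pool left out, edgeR called 24 of 17652 genes without control pool 1, 892 of 17784 without control pool 2 and 21 of 17869 without control pool 3. It called 55 of 17943 without Mttp-IKO pool 1, 0 of 17873 without Mttp-IKO pool 2 and 864 of 17854 without Mttp-IKO pool 3. Calls kept or lost below with 1 pool left out are to be read against these counts.

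Among the Cyp2b enzymes, Cyp2b13, a female-predominant enzyme, rose in Mttp-IKO livers from a low level. It was read at 2.03, 3.94 and 3.31 CPM in the controls and at 26.9, 41.6 and 13.8 CPM in Mttp-IKO pools. Every Mttp-IKO pool was thus above every control pool, and pool 3 was the lowest of its group. The change was 8.88-fold (log2 fold change 3.15 ± 0.43 SE, edgeR adjusted p = 0.0181). It was also called with scaling to the hepatocyte markers (log2 fold change 2.71, adjusted p = 0.00693) and without Mttp-IKO pool 3 (3.47, adjusted p = 0.00895). With 1 pool fewer the call was lost without control pool 1 (edgeR adjusted p = 0.0802), control pool 3 (0.0752), Mttp-IKO pool 1 (0.0613) or Mttp-IKO pool 2 (0.0914), which left 0 of the 10 genes called. Over all genes these fits called 24, 21, 55 and 0, so without Mttp-IKO pool 2 the count says nothing particular to the 10 genes. With any 1 pool left out the log2 fold change of Cyp2b13 stayed between 2.72 and 3.47.

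Cyp2b9, the most abundant Cyp2b gene of these livers, was read at 79.2, 209 and 169 CPM in the controls and 304, 360 and 253 CPM in Mttp-IKO pools. The groups did not overlap, and control pool 1 was well below the other control pools. The difference was 2.01-fold (log2 fold change 1.005 ± 0.339 SE) and did not pass (edgeR adjusted p = 0.134). DESeq2 placed it past the threshold (adjusted p = 0.0335), and scaling to the hepatocyte markers left a log2 fold change of 0.59.

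Cyp2b10 was read at 0.843, 2.30 and 1.97 CPM in control pools, from 34, 83 and 63 reads. In Mttp-IKO pools it was at 5.35, 2.23 and 41.8 CPM, from 166, 65 and 997 reads. Pool 2 of the Mttp-IKO group lay within the control range and pool 3 was far above every other pool. The fitted log2 fold change of 3.27 ± 1.02 SE did not pass (edgeR adjusted p = 0.113), while DESeq2 placed it past the threshold (adjusted p = 0.0450). Without Mttp-IKO pool 3 it was 1.16 (adjusted p = 0.207), so most of the fold came from 1 pool, which was the pool that stood apart in RNA content.

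As a family, the 3 Cyp2b genes summed to 157 ± 68.2 CPM (SD, n = 3) in control and 350 ± 48.9 CPM in Mttp-IKO pools, without overlap (two-sided exact permutation p = 0.1, the lowest value such a design can give). Tested as 1 summed row, the family was higher by 1.15 ± 0.33 SE (log2), with an edgeR adjusted p of 0.0944. Its composition also differed. Cyp2b13 made up 2.48, 1.83 and 1.90% of Cyp2b reads in control pools and 7.98, 10.3 and 4.49% in Mttp-IKO pools (exact permutation p = 0.1). Cyp2b10 made up 1.03 to 1.13% in control pools and 1.59, 0.552 and 13.6% in Mttp-IKO pools (exact permutation p = 0.6), and Cyp2b9 remained the main gene with 82.0 to 90.4%.

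In the Cyp2a enzymes the near-identical genes Cyp2a4 and Cyp2a5 had opposite signs. Cyp2a4, a steroid hydroxylase, was read at 596, 413 and 545 CPM in the controls and 1250, 486 and 1402 CPM in Mttp-IKO pools. Pools 1 and 3 of the Mttp-IKO group were above every control pool, whereas pool 2 lay within the control range. The log2 fold change of 1.01 ± 0.38 SE did not pass (edgeR adjusted p = 0.165), and without Mttp-IKO pool 3 it was 0.75. The pool with the least Cyp2a4 of its group was the pool with the most Cyp2b9 and Cyp2b13.

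Cyp2a5, which hydroxylates coumarin and nicotine, was read at 1150, 1165 and 946 CPM in the controls and 899, 602 and 999.7 CPM in Mttp-IKO pools. The groups overlapped at control pool 3, and the log2 fold change was −0.38 ± 0.24 SE (edgeR adjusted p = 0.370). Cyp2a22 was at 49.1, 100.5 and 68.3 CPM against 91.8, 84.3 and 72.0 CPM, all Mttp-IKO pools lying within the control range. Its log2 fold change of 0.19 ± 0.26 SE (adjusted p = 0.701) turned negative without control pool 1 (−0.05) and with scaling to the hepatocyte markers (−0.23).

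Cyp2a4 and Cyp2a5 together summed to 1605 ± 130 CPM (SD, n = 3) in control and 1880 ± 697 CPM in Mttp-IKO pools (exact permutation p = 0.5), and as 1 summed row the log2 fold change was 0.23 ± 0.30 SE (edgeR adjusted p = 0.688). Their proportions were further apart than their sum. Cyp2a4 supplied 34.2, 26.2 and 36.5% of the 2-gene total in control pools and 58.2, 44.6 and 58.4% in Mttp-IKO pools. The log2 ratio of Cyp2a4 to Cyp2a5 went from −1.08 ± 0.37 (SD, n = 3) to 0.22 ± 0.46, a difference of 1.30 without overlap between the groups (exact permutation p = 0.1). This ratio does not depend on the scaling between pools.

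**Figure D2:**
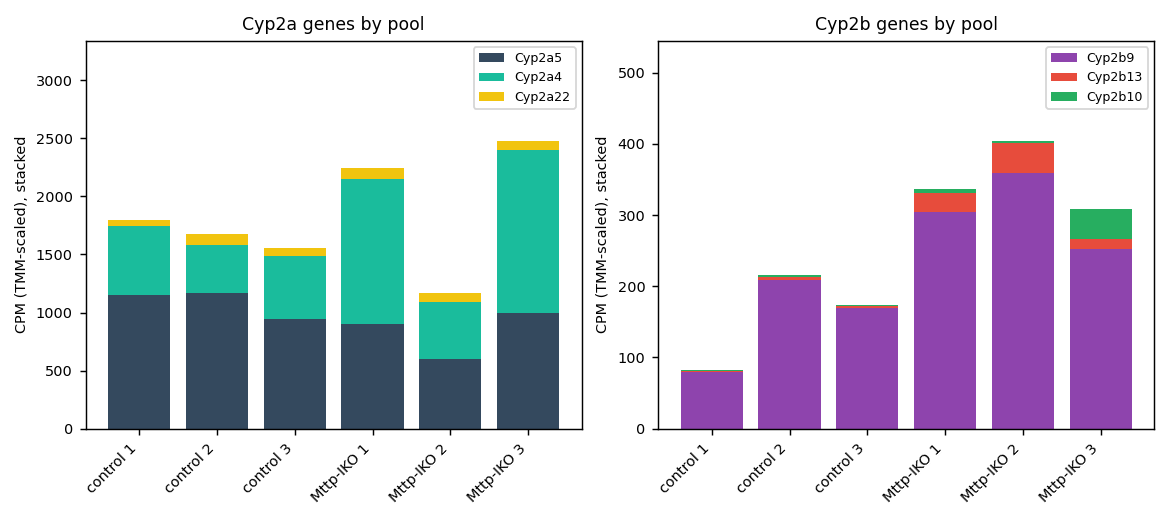
Stacked bars of TMM-scaled CPM (vertical axis from 0) per pool for the Cyp2a genes (left) and the Cyp2b genes (right), coloured by gene. The Cyp2a4 part is 26.2 to 36.5% of Cyp2a4 plus Cyp2a5 in control pools and 44.6 to 58.4% in Mttp-IKO pools, and all Mttp-IKO Cyp2b bars exceed all control Cyp2b bars.

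Reads that could not be placed uniquely were not counted, and copies differ in how much of their transcript is unique. Counted as exact windows of 50 nt on both strands of each gene's longest coding transcript (GENCODE M21), 61.2% of Cyp2a4 and 59.2% of Cyp2a5 windows occur in no other gene, and 88.8 and 85.6% of windows of 100 nt. The aligned Cyp2a4 and Cyp2a5 transcripts differ at 30 of 1738 positions. For the Cyp2b genes 72.7% (Cyp2b13), 88.8% (Cyp2b9) and 90.3% (Cyp2b10) of 50 nt windows are unique, with transcript identities of 91.7% between Cyp2b9 and Cyp2b13 and 87.5% between Cyp2b9 and Cyp2b10. The levels of these genes relative to each other are therefore uncertain, since the read length is not given in the sources used here. Nr1i3 shares sequence on the opposite strand with Tomm40l (41.9% of 50 nt windows unique), Alas1 with 4930500F10Rik (89.0%), and a pseudogene, Gm16061, lies within Por. The sources used here do not say if strand entered the counting, so reads of overlapping genes cannot be told apart with certainty.

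Both receptor genes had higher means in Mttp-IKO livers, and neither passed the test. Nr1i2 (PXR, ENSMUSG00000022809, chr16:38248323-38294824) was read at 75.2, 72.1 and 73.7 CPM in the controls and 83.8, 101.7 and 105.8 CPM in Mttp-IKO pools. The control pools were nearly identical and all Mttp-IKO pools were above them, with a log2 fold change of 0.40 ± 0.15 SE (edgeR adjusted p = 0.171). With scaling to the hepatocyte markers the log2 fold change of Nr1i2 turned to −0.09 (adjusted p = 0.768). Nr1i3 (CAR, ENSMUSG00000005677, chr1:171213970-171220701) was read at 73.6, 133.5 and 90.3 CPM in the controls and 174.7, 204 and 102 CPM in Mttp-IKO pools. Mttp-IKO pool 3 lay within the control range, and the log2 fold change was 0.69 ± 0.31 SE (adjusted p = 0.225), or 0.94 without that pool (adjusted p = 0.0749).

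Por and Alas1, which supply electrons and heme, had fold changes of opposite sign, neither past the test. Por (ENSMUSG00000005514, chr5:135670033-135735326) was read at 979, 1018 and 1122 CPM in the controls and 1173, 1809 and 1948 CPM in Mttp-IKO pools. The groups did not overlap, Mttp-IKO pool 1 being just above control pool 3, and the log2 fold change was 0.66 ± 0.24 SE (edgeR adjusted p = 0.152, DESeq2 adjusted p = 0.0452). With scaling to the hepatocyte markers it was 0.16. Alas1 (ENSMUSG00000032786, chr9:106233455-106248126) was read at 810, 891 and 992 CPM against 465, 832 and 923 CPM. Only Mttp-IKO pool 1 lay below the control range, and the log2 fold change was −0.28 ± 0.27 SE (edgeR adjusted p = 0.577).

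**Figure D3:**
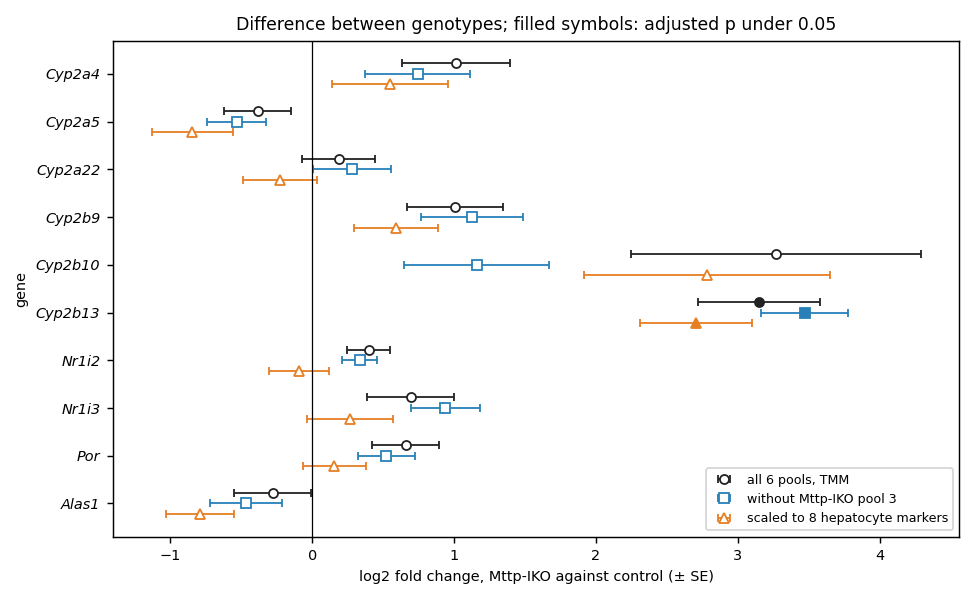
Log2 fold change of Mttp-IKO against control (horizontal axis, bars ± SE) for the 10 genes with all 6 pools (circles), without Mttp-IKO pool 3 (squares) and with scaling to 8 hepatocyte markers (triangles), filled where the edgeR adjusted p is under 0.05. Only Cyp2b13 is filled, in all 3 settings; Cyp2b10 falls from 3.27 to 1.16 without Mttp-IKO pool 3, and Cyp2a22 and Nr1i2 cross 0 with hepatocyte scaling.

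The other known inducible targets of CAR and PXR did not move one way. Of the list's 20 genes, 3 were called higher and 3 lower (0.920% and 3.09% of all genes), with a median log2 fold change of 0.14. Those with the smallest p were Gsta2, a glutathione transferase, which fell by 2.38 (log2, edgeR adjusted p = 0.0159), Aldh1a1, a retinaldehyde dehydrogenase, which fell by 1.27 (adjusted p = 0.0181), and Gadd45b, a stress-response gene, which rose by 1.24 (adjusted p = 0.0192). The other 3, named after their values were seen, were Cyp2c29 (2.15, adjusted p = 0.0370), the organic anion transporter gene Slco1a4 (1.23, 0.0486) and Ephx1, which encodes microsomal epoxide hydrolase (−1.21, 0.0496). Cyp3a11, the usual PXR target in mice and also chosen after its value was seen, was at 840, 631 and 773 CPM in the controls and 616, 655 and 969 CPM in Mttp-IKO pools. Mttp-IKO pool 1 was just below and pool 3 above the control range. Without Mttp-IKO pool 3 the list held 1 gene called higher and 2 lower, without control pool 2 it held 3 and 3, and without any 1 of the other 4 pools 0 genes were called by edgeR (Gsta2, adjusted p = 0.0551 to 0.0914). With all pools and scaling to the hepatocyte markers, 1 was called higher and 4 lower (median −0.36).

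Among 14 partners and coregulators of the receptors, 1 was called higher and 0 lower, with a median log2 fold change of 0.34. This was Nr0b2, which encodes the repressor SHP, at 25.1, 21.1 and 17.3 CPM in the controls and 54.5, 45.8 and 33.1 CPM in the Mttp-IKO group (log2 fold change 1.07 ± 0.22 SE, edgeR adjusted p = 0.0435). The groups did not overlap, and Nr0b2 was also called without Mttp-IKO pool 3 (edgeR adjusted p = 0.0208). The call was lost without control pool 1 (adjusted p = 0.119), control pool 2 (0.0967), control pool 3 (0.199), Mttp-IKO pool 1 (0.0930) or Mttp-IKO pool 2 (0.148). With scaling to total counts or to the hepatocyte markers 0 of the 14 were called, and the latter turned the median to −0.15. None of 12 genes of heme synthesis and breakdown was called by edgeR (1 at an unadjusted p under 0.05, median log2 fold change −0.19), and 1 was called lower with the hepatocyte scaling. Alad, the enzyme after Alas1 in the pathway, had the smallest p there (log2 fold change −0.59, adjusted p = 0.180). Without Mttp-IKO pool 3, 1 heme gene was called lower, the erythroid Alas2 (−1.23, adjusted p = 0.00944), named after its value was seen.

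Of the other electron donors and P450 partners 0 of 4 were called and 0 had an unadjusted p under 0.05 (median −0.09, and 0.01 without either control pool 2 or Mttp-IKO pool 3), Pgrmc1 having the smallest p (log2 fold change −0.18, adjusted p = 0.562). Targets of the aryl hydrocarbon receptor, a different xenobiotic sensor, gave 0 of 6 called and 2 at an unadjusted p under 0.05 (median −0.43), the smallest p being that of Cyp1b1 (log2 fold change −0.85, adjusted p = 0.116). Regulators of Cyp2a5, NRF2 among them, gave 0 of 8 called and 1 at an unadjusted p under 0.05 (median 0.15), which was Nfia (log2 fold change 0.62, adjusted p = 0.0920). In growth hormone signaling 0 of 10 genes were called and 1 was at an unadjusted p under 0.05 (median 0.01), the transducer Stat5a (−0.42, adjusted p = 0.163). Pericentral hepatocyte genes, which mark the zone where many drug-metabolizing enzymes are made, gave 0 of 9 tested genes called (2 unadjusted, median −0.16), with Oat having the smallest p (−1.27, adjusted p = 0.143). Periportal genes gave 0 of 10 (3 unadjusted, median 0.42), with the urea cycle gene Asl having the smallest p (0.93, adjusted p = 0.0829), all by edgeR. The medians of the periportal genes, the growth hormone signaling genes and the regulators of Cyp2a5 turned to −0.05, −0.46 and −0.30 with scaling to the hepatocyte markers, under which 2 pericentral genes and 1 aryl hydrocarbon receptor target were called lower. Without Mttp-IKO pool 3 the pericentral median was −0.53, with 8 of 9 genes below 0, and 1 periportal gene was called higher, the arginase gene Arg1 (log2 fold change 0.77, edgeR adjusted p = 0.0473), named after its value was seen. The pericentral median turned to 0.04 without control pool 2.

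The 5 other tested genes of the Cyp2a and Cyp2b gene cluster gave 0 called and 0 at an unadjusted p under 0.05. Cyp2a12 had the smallest p (362 and 481 CPM on average in control and Mttp-IKO pools, log2 fold change 0.41 ± 0.20 SE, edgeR adjusted p = 0.266). Cyp2g1 (1.23 and 1.01 CPM), which lies between Cyp2a4 and Cyp2a5, and Cyp2f2 (405 and 504 CPM), named by position, had log2 fold changes of −0.27 and 0.32. Cyp2b13 itself lay between Cyp2b10 and Cyp2b9, neither of which edgeR called, while DESeq2 called both.

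Female-predominant expression is a property that Cyp2a4, Cyp2b9 and Cyp2b13 share with genes elsewhere in the genome. A list of other female-biased liver genes held 18, of which 16 were tested, and all 16 had a positive log2 fold change (median 2.59). Cyp2c69, Cyp3a41b, Sult2a2 and Sult3a1 had at most 0.406 CPM in any control pool. They passed the low count filter through their Mttp-IKO pools, so their positive sign was fixed in advance and adds no support. In that list 9 were called higher and 0 lower (0.920% and 3.09% of all genes), and Cyp2c69, Cyp3a41b and Sult3a1 were among the 9. Groups did not overlap for 15 of the 16 (31.0% of all genes, 14.5% higher). The smallest p belonged to Cyp2c69 (0.149, 0.305 and 0.187 CPM in the controls, 6.96, 4.66 and 4.91 CPM in the Mttp-IKO group, log2 fold change 4.67, edgeR adjusted p = 0.00656). It was followed by Cyp2c40 (2.47, adjusted p = 0.00926) and Cux2, a female-specific repressor (3.29, adjusted p = 0.0159). Sult3a1 had 0 reads in all control pools and was at least 12.8-fold higher (against 3 reads in the shallowest control pool), and the median was the same with this bound. Without Mttp-IKO pool 3 the median was 2.496 with 11 called higher, where 302 of all 17854 genes were called higher. The calls depended on single pools, here as over all genes. In the list 9 were made without control pool 2, where 892 of all genes were called. The list held 3 without control pool 1, control pool 3 or Mttp-IKO pool 1, where 24, 21 and 55 of all genes were called. Without Mttp-IKO pool 2 both counts were 0. In each case 16 of 16 fold changes stayed positive, with medians of 2.42 to 2.90. With all pools the 16 genes kept a positive sign and 9 were called under each of the 4 other scalings, with a median of 2.14 under the hepatocyte scaling.

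The median and the calls of the 14 male-biased genes changed most without Mttp-IKO pool 3. With all pools 1 was called higher (Cyp2d9, log2 fold change 1.15, edgeR adjusted p = 0.0389) and 0 lower, the median being 0.42. The Cyp2d9 call was lost without control pool 1 (adjusted p = 0.139), control pool 3 (0.173), Mttp-IKO pool 1 (0.0845) or Mttp-IKO pool 2 (0.128). Without Mttp-IKO pool 3 the median was −1.44, with 1 called higher and 6 lower, and 12 of 14 had a negative sign. Over all genes that fit called 302 higher and 562 lower of 17854. With all pools and the hepatocyte scaling the median was −0.10. Wide gaps between pools, chosen after their values were seen, were those of Cyp4a12a (0.193 and 0.446 CPM in Mttp-IKO pools 1 and 2, 54.3 CPM in pool 3, 8.59 to 15.1 CPM in control pools) and Serpina1e (89.0, 105 and 2240 CPM, 35.8 to 91.6 CPM in control pools). The pool with these high values was also the pool with the highest Cyp2b10 and the lowest Cyp2b13 of its group. In Mttp-IKO pool 3, 12 of the 14 male-biased genes were above every control pool, against 2 in each of the other Mttp-IKO pools, while 16 of the 16 female-biased genes and Cyp2b13 were above every control pool in it as well. In Mttp-IKO pools 1 and 2, 7 and 9 of the 14 male-biased genes were below every control pool, against 1 in pool 3. The same shares over all genes were not computed for single pools, so these counts are descriptions.

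**Figure D4:**
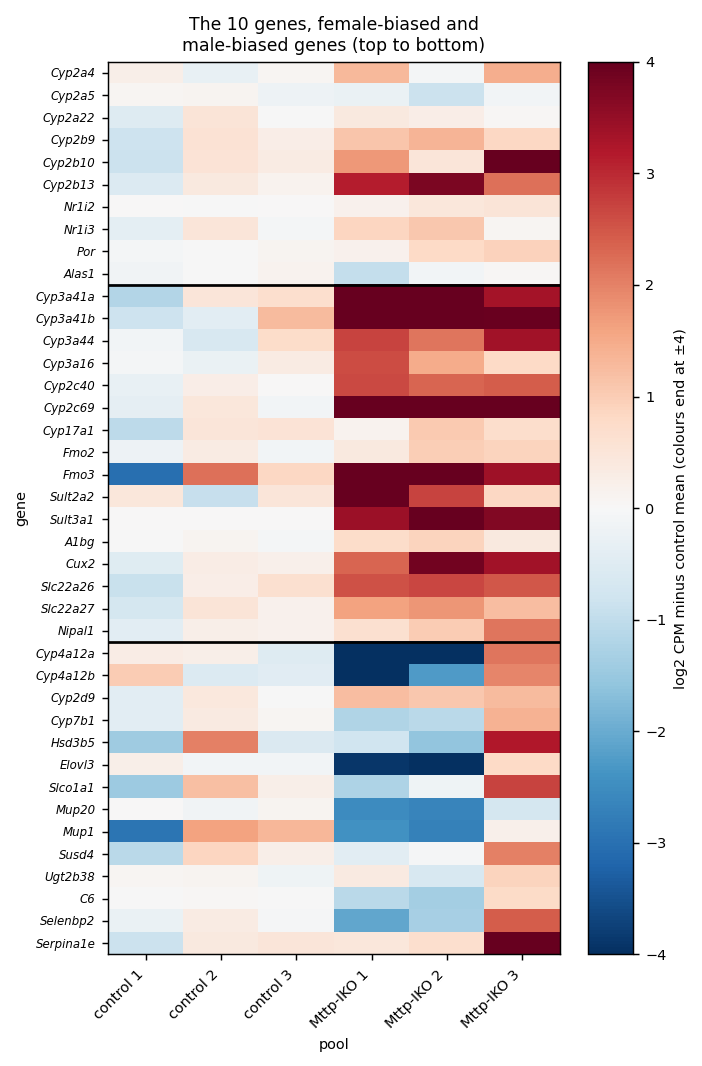
Log2 CPM (prior count 2) minus the mean of the 3 control pools, by pool (columns) for the 10 genes (top block), other female-biased genes (middle) and male-biased genes (bottom), with colours ending at −4 and 4. The female-biased block is red in all 3 Mttp-IKO pools, while much of the male-biased block is blue in Mttp-IKO pools 1 and 2 and red in pool 3.

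**Figure D5:**
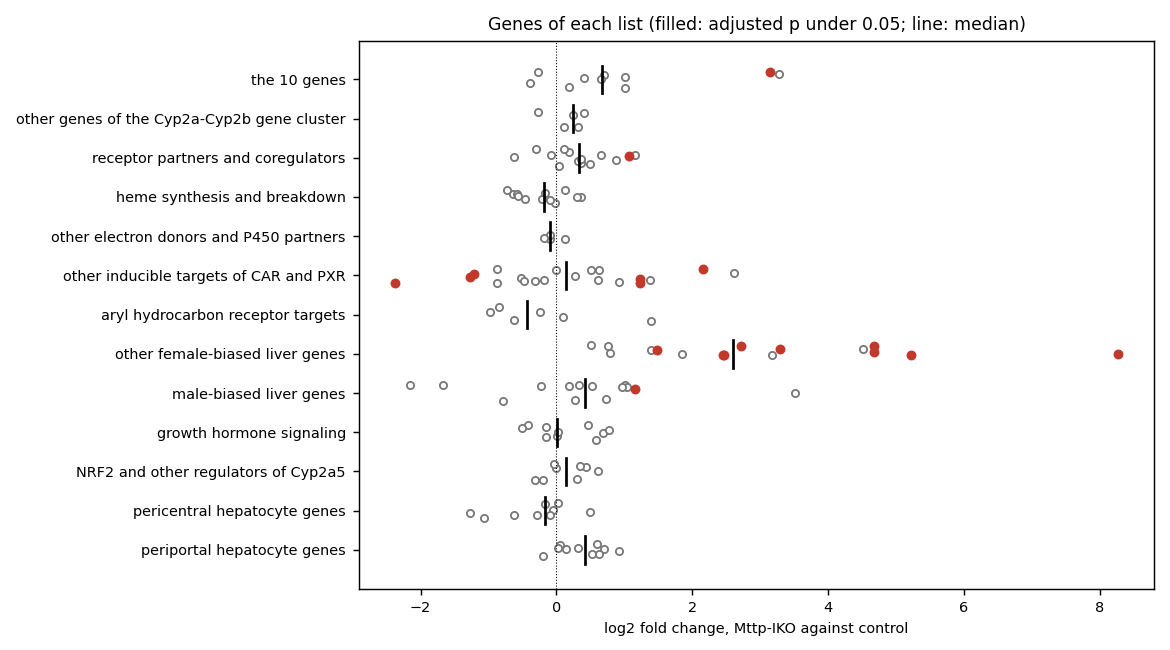
Log2 fold change of Mttp-IKO against control (horizontal axis) for the genes of each list (rows), filled where the edgeR adjusted p is under 0.05, with a vertical line at the list's median. The median of the 10 genes is 0.68 and that of the other female-biased genes 2.59, whose point farthest right is Sult3a1, a fitted value without reads in control pools.

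For each of the 10 genes, the 3 genes with the most similar profile over the 6 pools were found by the root mean square (RMS) difference of centred log2 CPM, among genes with an average log2 CPM of at least 1. Among the nearest to Cyp2b13 were Slc22a26 (RMS difference 0.533), one of the female-biased genes above, and Plppr1 (0.558). Slc22a26 was at 3.64, 8.10 and 10.6 CPM in the controls and 40.4, 43.2 and 38.0 CPM in the Mttp-IKO group, and in both genes control pool 1 was the lowest and Mttp-IKO pool 2 the highest. Cyp2b9 was closest to Hgfac (0.116), Fdft1 (0.125) and Mvk (0.125), the last 2 encoding enzymes of sterol synthesis, and Nr1i3 to Mmab (0.0727), 0610043K17Rik (0.0832) and Serpina1b (0.108).

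The nearest genes of Cyp2b10 were Serpina1e (0.553), Adcy1 (0.724) and Mir292 (0.741). All 3 were highest in Mttp-IKO pool 3. Cyp2a4 was nearest to Slc16a6 (0.248), Lonrf3 (0.251) and Nfil3 (0.268), and Cyp2a5 to Aox1 (0.0542), Tmtc4 (0.0727) and P4ha2 (0.0932). Aox1, an aldehyde oxidase gene, was at 71.0, 72.5 and 59.8 CPM in the controls and 60.2, 37.6 and 59.0 CPM in Mttp-IKO pools, with Mttp-IKO pool 2 the lowest, as for Cyp2a5. The nearest genes of Cyp2a22 were Gm10125, Pkdcc and Ufl1 (0.1003 to 0.122), those of Nr1i2 Ccnt2, Cwc25 and Dapk1 (0.0245 to 0.0440), those of Por Dcaf6, Gm4673 and Tob2 (0.0849 to 0.0884), and those of Alas1 Trarg1, Ypel5 and Hgd (0.0584 to 0.110). With 6 pools, many genes share a profile, and these likenesses are descriptions.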

How the data were processed

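Liver RNA of 3 control and 3 Mttp-IKO pools was analysed, with groups taken from the sample labels. Per pool, the authors deposited read counts of 41388 genes, namely uniquely aligned, unambiguous reads assigned by featureCounts 1.4.6-p5 after alignment with STAR 2.5.1a to Ensembl release 76 (GRCm38). Libraries were made after ribosomal RNA depletion. The authors also deposited CPM and RPKM, which follow from the counts and were not tested. A table of all pools holds 40481 of the genes with symbols, and 276 repeated lines of it were dropped.

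Genes were kept by filterByExpr (minimum count 10, minimum total 15), scaled by TMM (factors 0.898 to 1.11) and tested by glmQLFit and glmQLFTest of edgeR 4.0.16 in R 4.3.3, with Benjamini-Hochberg adjustment over 17287 genes and a threshold of 0.05. The study's methods name no differential expression test, so this choice was made here. SE is the log2 fold change divided by the root of the F statistic. On simulated counts edgeR recovered 193 of 199 changed genes with 9 false calls among 16964 genes. The simulation gave all changed genes the same size of change, up or down, and all genes the same dispersion. It held no pool that stood apart, so it checks the code and does not measure power or false calls in these data.

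The 10 genes, the gene lists and the alternatives were chosen with earlier results of these data known, so no p-value was adjusted over a list alone. Named were the 10 genes, from each list up to 3 called genes or else the gene with the smallest p, and the 3 nearest profiles of each gene, of which 1 is not reported here. Promoters came from RefSeq (GRCm38.p6, 10 of 10 matched) and transcripts from GENCODE M21. Alternatives were other scalings, DESeq2 1.42.0, limma-voom (limma 3.58.1), the replicate block, robust dispersion, changed or no filters, restriction to protein-coding genes, removal of a loess trend with length (span 0.3), other thresholds, summed copies and leaving out each pool.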

Additional observations from a re-analysis of the deposited data

How the results depend on the processing

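Of 185 fold changes of the 10 genes under the alternatives, 173 kept their direction and side of the threshold. A gene that was not called counts as kept whenever it stays uncalled with the same sign, as Cyp2b10 did at 1.16 without Mttp-IKO pool 3. Cyp2b13, the 1 gene called, kept its call in 14 of 18 alternatives, the summed row aside. With 1 pool left out Cyp2a22 ranged from −0.048 (without control replicate 1, a reversal) to 0.477, and it also reversed with scaling to the hepatocyte markers (−0.23), as did Nr1i2 (−0.094). The summed row of Cyp2a4 and Cyp2a5 was at 0.23, the opposite sign to Cyp2a5 alone (−0.38), which kept its sign in its 18 other alternatives. The 1 gene called of the 10 became 4 with DESeq2 (Cyp2b9, Cyp2b10, Cyp2b13 and Por), 0 at a threshold of 0.01, and 0 to 1 with 1 pool left out. Of all genes tested, 694 were called, against 1995 with DESeq2, 428 with limma-voom, 1658 at a threshold of 0.1, 5 at 0.01, 1941 with scaling to the hepatocyte markers and 0 to 892 with 1 pool left out. The lowest was without Mttp-IKO replicate 2, where edgeR called 0 genes and 3221 had an unadjusted p under 0.05. Of 126 tested genes of the lists, 17 were called, against 29 with DESeq2, 26 at 0.1, 2 at 0.01 and 0 to 24 with 1 pool left out. The cause of these changes was not tested. The hepatocyte scaling and the values of single lists with 1 pool left out or another scaling were chosen after seeing the data.

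The labels give same-numbered pools no link beyond the number. Their deviations from the group means correlated at 0.139, 0.112 and 0.00698, against −0.125 to 0.0208 for pools of unlike number. What same-numbered pools might share was not tested. Of the 6 pools, 5 correlated best with their own number and Mttp-IKO pool 3 did not. The replicate block gave 592 genes called, the same count of 1 among the 10 genes and 21 of the list genes. With 3 pools a group, exact tests cannot reach a two-sided p under 0.1, and the low counts of Cyp2b10 (34 to 83 reads in control pools) limit its precision.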
